A study of Mus musculus with 9 samples.

Results

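The genes described here are the transcripts of 5 STAT transcription factors (Stat2, Stat3, Stat5a, Stat5b and Stat6) and of 4 SOCS-family feedback inhibitors (Socs1, Socs2, Socs3 and Cish). They were taken by gene symbol, as a family chosen with earlier results of these data known, and all 9 were found among the 56748 genes of the deposited table. Transcripts were counted by RNA sequencing of RAW264.7 cells, a macrophage line grown from a virus-induced mouse tumour, in 3 groups of 3 libraries. All 3 groups were kept under a model condition left unnamed in the labels, and no group outside that condition is included. The PBS group received phosphate-buffered saline, the P-Mn@mHSA group received nanoparticles with nanoenzymes (materials with enzyme-like activity), and cells of the P-Mn/TI@mHSA group were given particles that also held an inhibitor of TRAF6. TRAF6 is a ubiquitin ligase that relays signals from Toll-like and interleukin-1 receptors. The sources used here give no dose, time or further composition of the particles. The labels do not say whether the triplicates were separate cultures, so the p-values rest on a spread between libraries that may be technical.

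STAT proteins wait in the cytoplasm until a cytokine receptor is engaged. Janus kinases on the receptor then phosphorylate them, and paired STATs enter the nucleus and switch on target genes. SOCS genes are among those targets: their proteins bind the receptors or the kinases and, through a SOCS box that recruits a ubiquitin ligase, shut the pathway down. In macrophages, STAT3 carries the signals of IL-6 and IL-10, STAT5 those of GM-CSF, STAT6 those of IL-4 and IL-13, and STAT2 those of type I interferon. STAT activity depends on phosphorylation, which was not measured here.

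Library depth was 13994570 to 15543439 counts, and 12454 genes were tested in a single edgeR quasi-likelihood fit of the 9 libraries with Benjamini-Hochberg adjustment. A gene was called changed at an adjusted p under 0.05. Levels of a gene across libraries are given as CPM (read counts scaled to a common library size with TMM, an edgeR correction), and levels of different genes are compared per gene length, as the deposited FPKM. Of the 10 macrophage markers examined, 9 were counted in every group, with summed levels of 6137 to 6427 CPM in the PBS libraries, 4931 to 5227 CPM in the P-Mn@mHSA libraries and 5079 to 5467 CPM in the P-Mn/TI@mHSA libraries. Mertk, a macrophage receptor for dying cells, had 0 or 1 counts in each library. In both comparisons with PBS, 4 of the 9 tested markers rose and 5 fell. Among all genes tested, 24.3% rose and 24.1% fell with P-Mn@mHSA, and 27.1% rose and 27.3% fell with P-Mn/TI@mHSA. The falls of Adgre1, the gene of the F4/80 antigen (log2 change -1.95 ± 0.09 with P-Mn@mHSA and -1.90 ± 0.09 with P-Mn/TI@mHSA), of the lysozyme gene Lyz2 (-1.68 ± 0.08 and -1.86 ± 0.08) and of the integrin gene Itgam (-1.34 ± 0.08 and -1.64 ± 0.08) were of greater size than the change of any of the 9 genes described here in the same comparison. Itgam was also lower with the inhibitor-loaded particle than with P-Mn@mHSA (-0.30 ± 0.08, edgeR adjusted p = 0.0467). Of the short fixed-length stretches in Itgam transcripts, 66.3% also occur in another gene, Gm49368. Some reads may thus have been assigned to the wrong gene, which applies to all Itgam values given here. The share was lower for Lyz2 (15.4%, with Lyz1) and Csf1r (14.3%, with Hmgxb3), and the same limit applies to them. Among the rises were Fcgr1, an antibody receptor gene (0.74 ± 0.06 and 0.55 ± 0.06), and Csf1r, the receptor gene of the macrophage growth factor (0.37 ± 0.06 and 0.55 ± 0.06). The part of these marker changes in the results below was not tested. The 10 markers of other cell types summed to 2.57 to 5.87 CPM over all libraries, nearly all of it Pecam1, and those at 0 throughout included the T cell marker Cd3g, the B cell marker Ms4a1, the fibroblast gene Col1a2 and the globin gene Hbb-bs.

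Socs3 was by far the most abundant of the 9 transcripts per unit length in the PBS libraries, at 173.7 ± 17.2 FPKM (mean ± SD, n = 3 here and in all such values). Stat6 followed at 38.3 ± 2.21 FPKM, then Stat3 at 18.0 ± 0.805 and Stat5b at 10.3 ± 0.297. Stat2 (8.70 ± 0.512 FPKM) and Stat5a (8.33 ± 0.424 FPKM) came next, and these neighbours overlapped. The remaining inhibitors were scarce, with Socs1 at 0.962 ± 0.172, Cish at 0.653 ± 0.0477 and Socs2 at 0.0851 ± 0.00665 FPKM. Socs3 thus made up 99.0% of the summed FPKM of the 4 SOCS genes in the PBS libraries, 96.9% with P-Mn@mHSA and 97.4% with P-Mn/TI@mHSA.

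The order of the genes changed little with treatment. Socs3 still led at 72.2 ± 1.11 FPKM with P-Mn@mHSA and 62.2 ± 1.81 FPKM with P-Mn/TI@mHSA, but Stat6 had drawn closer at 51.5 ± 2.64 and 53.3 ± 2.36 FPKM. Stat2 passed Stat5b in the P-Mn@mHSA libraries, at 16.2 ± 0.758 against 10.6 ± 0.420 FPKM. In the P-Mn/TI@mHSA libraries these genes overlapped again, at 11.5 ± 1.15 and 12.4 ± 0.659 FPKM. Socs1 and Cish overlapped in the P-Mn@mHSA libraries, at 1.19 ± 0.344 and 1.05 ± 0.197 FPKM.

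**Figure D1:**
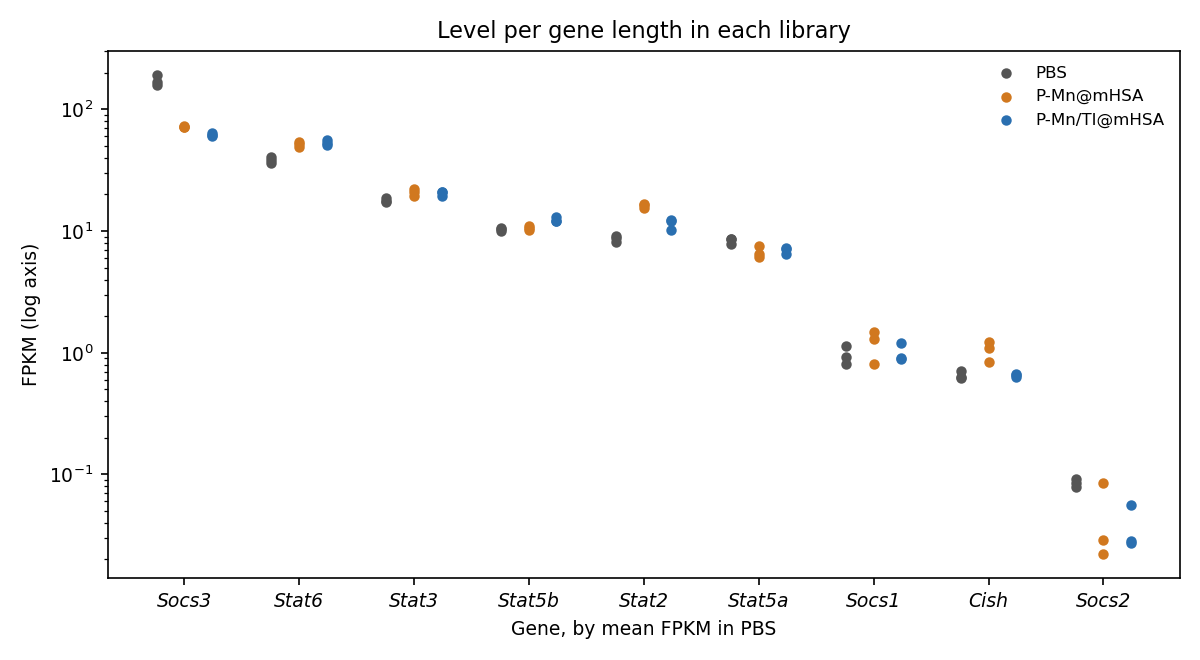
Level per gene length (FPKM, log axis) of the 9 genes in each of the 9 libraries, with genes ordered by their mean in the PBS libraries and 1 point per library. The Socs3 points drop from a PBS mean of 173.7 FPKM to means of 72.2 and 62.2 FPKM, while the points of Stat6 and Stat2 move up, and Socs1, Cish and Socs2 lie at or under 1.48 FPKM in each library.

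With P-Mn@mHSA, Stat2, Stat6, Stat3 and Cish rose and Socs3 and Stat5a fell against PBS, by edgeR's quasi-likelihood test. These are 4 rises and 2 falls among 9 members, while 48.5% of all genes tested changed in that comparison, 24.3% upwards and 24.1% downwards. With P-Mn/TI@mHSA, Stat2, Stat6, Stat3 and Stat5b rose and Socs3 and Stat5a fell, again 4 rises and 2 falls, where 54.4% of all genes changed, 27.1% upwards and 27.3% downwards. Between the particle groups, Stat2 and Cish were lower with the inhibitor-loaded particle, 2 of 9 members where 3.82% of all genes changed, 2.34% lower and 1.48% higher. The median log2 change of the 9 genes was 0.21, 0.05 and -0.22 in the 3 comparisons, in that order, and the median of all genes tested lay between -0.0070 and -0.0023. Both comparisons with PBS share the PBS libraries, so their values are not independent. Scaling by library totals alone, without TMM, lowered the share of rises among changed genes from 50.2% to 37.8% for P-Mn@mHSA and from 49.8% to 39.4% for P-Mn/TI@mHSA. Rescaling FPKM to TPM, fitted with limma, gave 34.3% and 40.7%. Between the particle groups, rises were 38.7% of the changed genes by edgeR and 18.4% by limma on log2(FPKM + 1).

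**Figure D2:**
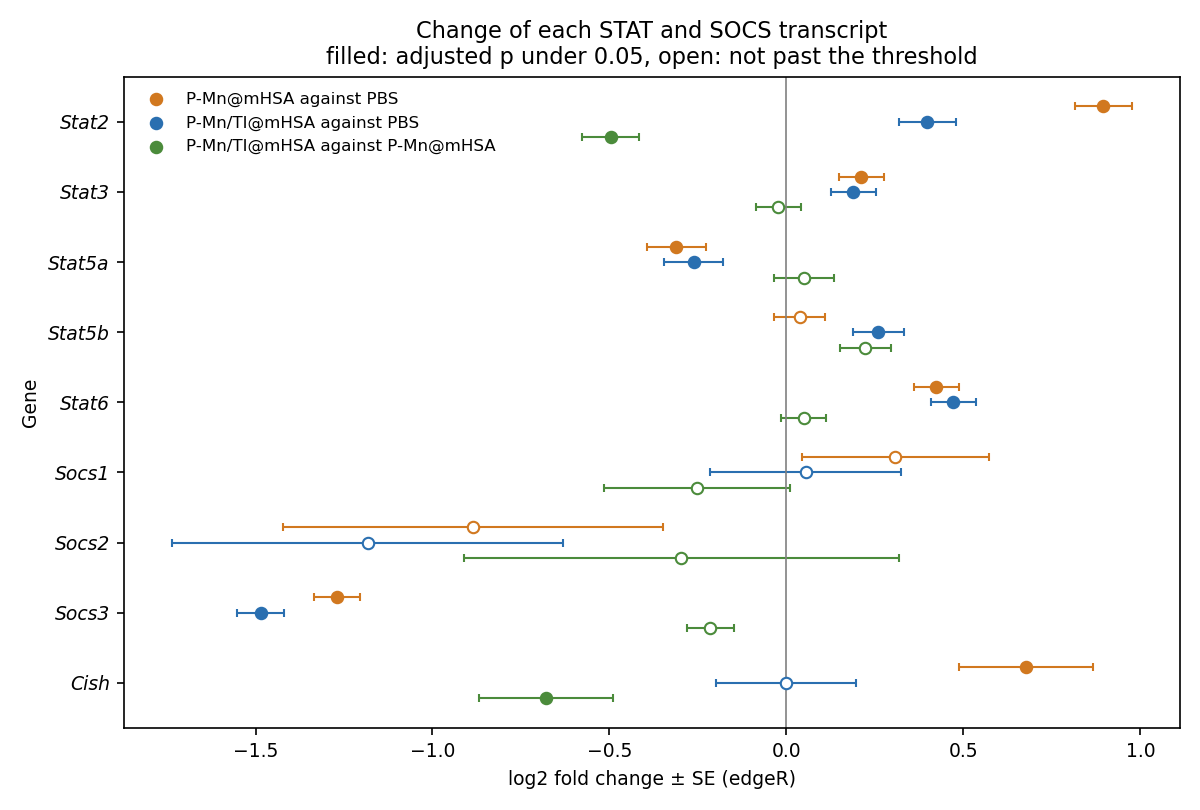
Log2 fold change with its standard error (edgeR) of the 9 genes in the 3 comparisons, filled where the adjusted p was under 0.05 and open where it was not. Socs3 lies farthest left among the filled points at -1.27 and -1.49 against PBS, Stat2 farthest right at 0.90, and the only filled points between the particle groups are Stat2 at -0.50 and Cish at -0.68.

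Stat2, which pairs with another STAT and with IRF9 to form the DNA-binding complex of type I interferon, rose more with P-Mn@mHSA than any other of the 9 genes. It was measured at 52.3, 54.9 and 48.8 CPM in the PBS libraries, at 98.3, 91.5 and 100.3 CPM in the P-Mn@mHSA libraries and at 73.0, 71.6 and 60.8 CPM in the P-Mn/TI@mHSA libraries. Each P-Mn@mHSA library stood above each P-Mn/TI@mHSA library, and those stood above each PBS library. The rise was 1.86-fold with P-Mn@mHSA (log2 change 0.90 ± 0.08, SE, edgeR adjusted p = 9.91e-09) and 1.32-fold with P-Mn/TI@mHSA (0.40 ± 0.08, edgeR adjusted p = 0.000293). Stat2 was 1.41-fold lower with the inhibitor-loaded particle than with P-Mn@mHSA (-0.50 ± 0.08, edgeR adjusted p = 0.000881). That call held in 16 of 18 alternatives and was lost with limma on log2(FPKM + 0.1), at an adjusted p of 0.0701, and on log2(TPM + 1), at 0.18. With P-Mn@mHSA, 4.10% of all genes tested had a larger log2 change than Stat2. In RNA from whole cultures, fewer cells that express a gene and less of its RNA per cell cannot be told apart.

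The Stat2 gene lies on chromosome 10, and the sequence upstream of its start is shown because it holds an element of the pathway that STAT2 serves. The core of the interferon response element and the STAT site, as TTCNNNGAA and in a form with a 4-base spacer that STAT6 prefers, were searched on both strands of the RefSeq window from 250 bases before to 50 bases after a gene's start. In the stretch at chr10:128270257-128270316 (GRCm38.p6, plus strand, bases -241 to -182 from the start) the capitals mark a match to the interferon element core and, separated by a pair of bases, a match to the longer STAT site.
Stat2: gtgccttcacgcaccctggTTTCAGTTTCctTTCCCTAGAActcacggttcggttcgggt
Among 32851 windows of the same length, 3.44% held the interferon element core, 6.95% the STAT site with the 4-base spacer and 8.30% TTCNNNGAA. A match describes the letters and is not evidence of binding. Windows were found for 8 of the 9 genes, and those of Stat3, Stat5a, Stat5b and Stat6 held none of the 3 motifs.

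Among the partners of STAT proteins, Irf9, the DNA-contacting subunit that joins STAT2, also rose, from 60.2 ± 4.21 CPM in PBS to 103.9 ± 2.12 CPM with P-Mn@mHSA and 91.9 ± 6.05 CPM with P-Mn/TI@mHSA. Its log2 changes were 0.79 ± 0.07 and 0.61 ± 0.07 (edgeR adjusted p = 1.7e-08 and 5.33e-07). Nmi, a protein that binds STATs, rose with P-Mn@mHSA (log2 change 0.53 ± 0.11, edgeR adjusted p = 0.00041) and was lower with the inhibitor-loaded particle than without (-0.69 ± 0.11, edgeR adjusted p = 0.000957). Its levels were 18.1 ± 2.40 CPM in PBS, 26.2 ± 0.656 CPM with P-Mn@mHSA and 16.3 ± 0.382 CPM with P-Mn/TI@mHSA. Of the 5 partners tested, 2 rose and 1 fell with P-Mn@mHSA, 2 rose and none fell with P-Mn/TI@mHSA, and 1 was lower between the particle groups. The fall was Ncoa1, a coactivator, by a log2 change of -0.35 ± 0.11, a call lost without PBS replicate 2 or P-Mn@mHSA replicate 2. The second rise with P-Mn/TI@mHSA was Ep300, an acetyltransferase, at 0.30 ± 0.10, and the count was 1 without PBS replicate 1. Beside these counts, 24.3% of all genes tested rose and 24.1% fell with P-Mn@mHSA. With P-Mn/TI@mHSA 27.1% rose and 27.3% fell, and between the particle groups 2.34% were lower.

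Ifnb1, the gene of interferon beta, had no count in the PBS libraries, 3 to 9 counts in the P-Mn@mHSA libraries and 1 to 7 in the P-Mn/TI@mHSA libraries, too few to be tested. The receptor genes Ifnar1 and Ifnar2, through which it acts, did not pass the threshold in any comparison, with log2 changes of -0.05 ± 0.08 and 0.08 ± 0.08 for P-Mn@mHSA against PBS. The genes whose pattern over the 9 libraries was most like that of Stat2, by Pearson correlation of log2 CPM among 8430 genes with a mean of at least 2 FPKM, were Isg20, an interferon-stimulated exonuclease, and Lgals9, the gene of galectin-9, at r = 0.978 each. Such values only describe, because the libraries fall into 3 groups and a shared group pattern gives a high r. Isg20 ran from 28.8 to 33.1 CPM in PBS, 115.8 to 123.8 CPM with P-Mn@mHSA and 48.0 to 57.4 CPM with P-Mn/TI@mHSA.

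Stat6, the STAT of IL-4 and IL-13 signalling and the most abundant STAT transcript per unit length, rose in both particle groups. It was counted at 160.2, 170.9 and 179.3 CPM in PBS, at 216.4, 228.1 and 239.6 CPM with P-Mn@mHSA and at 245.9, 224.9 and 236.9 CPM with P-Mn/TI@mHSA. The PBS libraries lay below all 6 particle libraries, and the particle groups overlapped. The rises were 1.34-fold (log2 change 0.42 ± 0.06, edgeR adjusted p = 1.22e-05) and 1.39-fold (0.47 ± 0.06, edgeR adjusted p = 2.34e-06), and both calls held in all 18 alternatives. The log2 change from P-Mn@mHSA to P-Mn/TI@mHSA was 0.05 ± 0.06 (edgeR adjusted p = 0.716). Stat6 made up 45.8 ± 0.833% of the summed FPKM of the 5 STAT genes in PBS, 48.6 ± 1.40% with P-Mn@mHSA and 50.9 ± 1.87% with P-Mn/TI@mHSA. On chromosome 10 the Stat6 interval overlaps Nab2 on the other strand by 40 bases in the table's own coordinates, whose build is in doubt, and no strand setting of the counting is given in those sources. The genes most like Stat6 were Ptk2b, a focal adhesion-related kinase, and Cep89, a centrosomal protein, at r = 0.991 each.

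Upstream of STAT6, the receptor chain gene Il4ra fell from 32.2 ± 1.39 CPM in PBS to 18.5 ± 2.74 CPM with P-Mn@mHSA and 14.9 ± 1.06 CPM with P-Mn/TI@mHSA. Its log2 changes were -0.80 ± 0.11 and -1.11 ± 0.11 (edgeR adjusted p = 5.17e-06 and 5.98e-08). The cytokine genes themselves were nearly silent: Il4 had at most 7 counts in a library and Il13 had none. Of 13 genes known as STAT6 targets in mouse macrophages, 7 had too few counts to be tested, and Retnla, Chil3, Ccl24 and Pdcd1lg2 were at 0 in every library. Arg1 reached at most 8 counts in a library and Mrc1 at most 9. Of the 6 tested, 1 rose and 1 fell in each comparison with PBS. The rise was Egr2, a zinc finger transcription factor, from 4.57 ± 0.786 CPM in PBS to 8.40 ± 0.955 and 9.26 ± 2.24 CPM (log2 change 0.88 ± 0.19 and 1.02 ± 0.19), and the fall was Il4ra, which belongs to both lists. The median log2 change of the 6 was 0.28 with P-Mn@mHSA and 0.01 with P-Mn/TI@mHSA. Over all genes tested, 24.3% rose and 24.1% fell with P-Mn@mHSA, and 27.1% and 27.3% with P-Mn/TI@mHSA.

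Stat3, the main STAT of IL-6 and IL-10 signalling, rose by a small amount. Its levels were 166, 171.1 and 180.8 CPM in PBS, 201.9, 185.2 and 212.9 CPM with P-Mn@mHSA and 201.6, 200.9 and 187.9 CPM with P-Mn/TI@mHSA. No PBS library reached any particle library, though the highest PBS value and the lowest P-Mn@mHSA value lay 180.8 against 185.2 CPM. The rises were 1.16-fold (log2 change 0.21 ± 0.06, edgeR adjusted p = 0.00953) and 1.14-fold (0.19 ± 0.06, edgeR adjusted p = 0.0168). With P-Mn@mHSA the call ended on library totals (adjusted p = 0.0947), on TPM (0.339) and when P-Mn@mHSA replicate 3 was left out (0.057). With P-Mn/TI@mHSA it ended in 6 of 18 alternatives, among them library totals (0.161) and leaving out PBS replicate 1 (0.0698), P-Mn/TI@mHSA replicate 1 (0.0617) or P-Mn/TI@mHSA replicate 2 (0.0732). From P-Mn@mHSA to P-Mn/TI@mHSA the log2 change was -0.02 ± 0.06 (edgeR adjusted p = 0.881). Stt3a, a subunit of the enzyme that adds sugars to new proteins, and Kansl1, of a histone acetyltransferase complex, were most like Stat3, at r = 0.981 each.

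The Stat5a and Stat5b genes are close paralogs that lie head to head on chromosome 11, with 8.626 kb and no protein-coding gene between them in the table's coordinates. They carry the signals of GM-CSF, growth hormone and many interleukins. Stat5a was counted at 56.5, 61.9 and 61.5 CPM in PBS, at 46.8, 44.1 and 54.1 CPM with P-Mn@mHSA and at 52.4, 50.8 and 46.8 CPM with P-Mn/TI@mHSA. Stat5b was counted at 56.0, 58.4 and 59.0 CPM in PBS, at 57.5, 58.5 and 61.9 CPM with P-Mn@mHSA and at 66.8, 73.3 and 67.5 CPM with P-Mn/TI@mHSA. For Stat5a, both particle groups lay below the PBS libraries and overlapped each other, whereas for Stat5b the P-Mn/TI@mHSA libraries alone stood above the other 6.

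Stat5a fell 1.24-fold with P-Mn@mHSA (log2 change -0.31 ± 0.08, edgeR adjusted p = 0.00421) and 1.20-fold with P-Mn/TI@mHSA (-0.26 ± 0.08, edgeR adjusted p = 0.0116). The second call was lost without P-Mn/TI@mHSA replicate 3 (adjusted p = 0.0675) and on TPM (0.0535). Stat5b rose 1.20-fold with P-Mn/TI@mHSA (0.26 ± 0.07, edgeR adjusted p = 0.00434), a call lost on TPM (0.0625), and its change with P-Mn@mHSA was 0.04 ± 0.07 (edgeR adjusted p = 0.698). Stat5b differed between the particle groups by 0.22 ± 0.07, which did not pass the threshold (edgeR adjusted p = 0.0851), although the groups did not overlap. Of the 50-base stretches in their transcripts, 8.52% of those of Stat5a and 11% of those of Stat5b also occur in another gene, chiefly in each other, so some reads may have been assigned to the wrong paralog. Stat5a and Stat3 also overlap by 72 bases where their ends meet, by the same coordinates.

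The ratio of Stat5a to Stat5b within a library is free of any scaling between libraries. It was 0.806 ± 0.0197 in PBS (0.784 to 0.823), 0.632 ± 0.0460 with P-Mn@mHSA (0.586 to 0.678) and 0.562 ± 0.0410 with P-Mn/TI@mHSA (0.538 to 0.610), as FPKM over FPKM. Each particle library lay below each PBS library, and the particle groups overlapped. This ratio was chosen after the values were seen and was not tested. Tnpo2, a nuclear import receptor, and Nfe2l1, a stress-response transcription factor, were most like Stat5a (r = 0.979 and 0.978), and Incenp and Sae1, of chromosome segregation and SUMO activation, most like Stat5b (0.955 and 0.943).

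**Figure D3:**
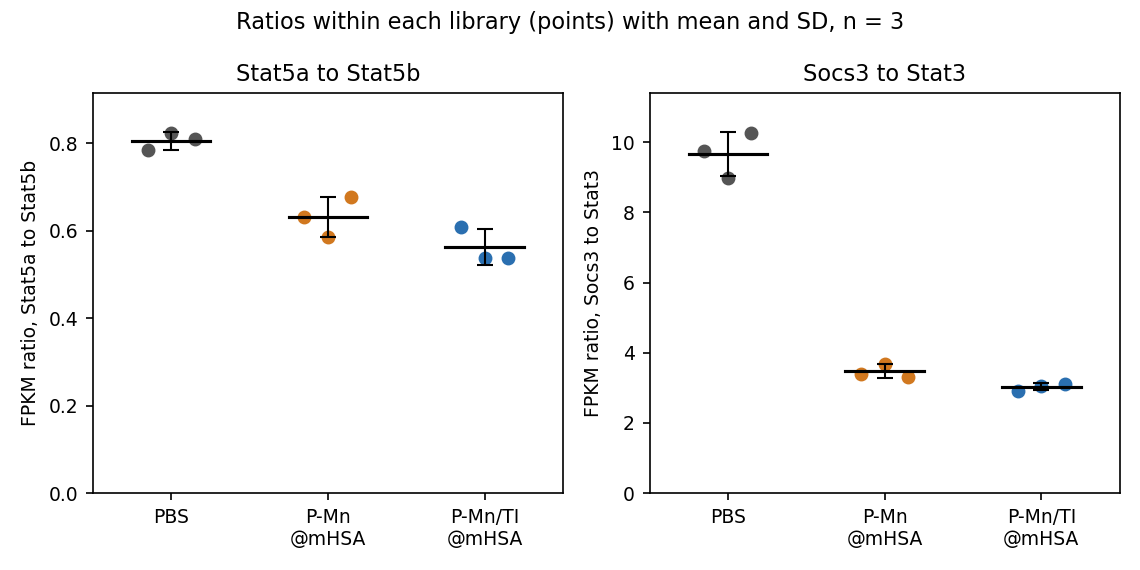
FPKM ratios within each library (points) with the group mean and SD (n = 3), for Stat5a to Stat5b on the left and Socs3 to Stat3 on the right. The Stat5a to Stat5b ratio falls from a mean of 0.806 in PBS to 0.632 and 0.562, and the Socs3 to Stat3 ratio from 9.66 to 3.47 and 3.03.

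Socs3, the feedback inhibitor that binds the gp130 receptor chain and its kinases and so restrains IL-6 signalling through STAT3, fell more than any other called member. It was counted at 490.6, 466.7 and 562.3 CPM in PBS, at 208.8, 207.5 and 213.8 CPM with P-Mn@mHSA and at 178.7, 186.5 and 177.5 CPM with P-Mn/TI@mHSA. The 3 groups did not overlap, and the particle groups were tight, with a coefficient of variation of 1.59% and 2.69% against 9.82% in PBS. The falls were 2.41-fold with P-Mn@mHSA (log2 change -1.27 ± 0.07, edgeR adjusted p = 1.66e-12) and 2.80-fold with P-Mn/TI@mHSA (-1.49 ± 0.07, edgeR adjusted p = 1.38e-13). Of all genes tested, 3.61% and 3.04% had a lower log2 change. Both calls held in all 18 alternatives, with log2 changes of -1.35 to -1.19 and of -1.57 to -1.40.

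Socs3 was a further 1.16-fold lower with the inhibitor-loaded particle than with P-Mn@mHSA (log2 change -0.22 ± 0.07), which missed the threshold (edgeR adjusted p = 0.0692). It passed with DESeq2 (adjusted p = 0.0374) and with all genes of at least 1 count (0.0422), and in none of the other 16 alternatives. The Socs3 to Stat3 ratio, as FPKM over FPKM, was 9.66 ± 0.633 in PBS, 3.47 ± 0.199 with P-Mn@mHSA and 3.03 ± 0.0995 with P-Mn/TI@mHSA. The summed FPKM of the 5 STAT genes went from 83.7 ± 3.43 in PBS to 106 ± 5.03 and 104.7 ± 3.38, while that of the 4 SOCS genes went from 175.4 ± 17.1 to 74.5 ± 1.46 and 63.9 ± 1.95. These sums and ratios are descriptions with no test.

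Sequences near the start of the 3 other SOCS-family genes with a RefSeq window are shown because each holds a STAT-type or interferon-type motif. The Socs1 window held no STAT site of either form. As for Stat2, a match describes the letters and is not evidence of binding. For Socs3 (chr11:117969487-117969546, GRCm38.p6, minus strand, bases -180 to -121) the capitals mark TTCNNNGAA. For Socs1 (chr16:10785582-10785641, minus strand, bases -105 to -46) they mark 2 overlapping matches to the interferon element core that read on the opposite strand. For Cish (chr9:107296654-107296683, plus strand, bases -5 to 25) they mark 2 TTCNNNGAA matches.
Socs3: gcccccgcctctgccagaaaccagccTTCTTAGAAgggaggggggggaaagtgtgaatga
Socs1: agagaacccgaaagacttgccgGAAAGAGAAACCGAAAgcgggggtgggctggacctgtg
Cish: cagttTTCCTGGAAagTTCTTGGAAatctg
Of these genes, Socs3 fell in both comparisons with PBS, Cish rose with P-Mn@mHSA but was not called with P-Mn/TI@mHSA, and Socs1 was called in neither. Any part of these motifs in the changes was not tested.

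The patterns most like that of Socs3 were those of Csf3, which encodes G-CSF, at r = 0.998 and of the chemokine gene Ccl22 at 0.994. Csf3 lies on chromosome 11, as Socs3 does, and Ccl22 on chromosome 8. Ccl22 went from 114.1 ± 6.42 CPM in PBS to 13.7 ± 1.88 and 9.55 ± 0.502 CPM, a larger change than that of Socs3.

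Cish, the founding SOCS-family gene and a classic target of STAT5, rose with P-Mn@mHSA and stood at the PBS level with P-Mn/TI@mHSA. It was counted at 4.13, 4.58 and 3.98 CPM in PBS, at 7.04, 5.37 and 7.88 CPM with P-Mn@mHSA and at 4.34, 4.05 and 4.29 CPM with P-Mn/TI@mHSA, from 59 to 111 counts per library. The P-Mn@mHSA libraries lay above the other 6, and the PBS and P-Mn/TI@mHSA libraries overlapped. The rise with P-Mn@mHSA was 1.60-fold (log2 change 0.68 ± 0.19, edgeR adjusted p = 0.00539) and held in all 18 alternatives, and the change with P-Mn/TI@mHSA was -0.002 ± 0.198 (edgeR adjusted p = 0.993).

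Between the particle groups Cish was 1.60-fold lower with the inhibitor (log2 change -0.68 ± 0.19, edgeR adjusted p = 0.0461), just past the threshold. That call held in 4 of 18 alternatives, with adjusted p from 0.0251 to 0.214, and leaving out any library except P-Mn@mHSA replicate 2, controls included, ended it. In the table's coordinates the Cish interval on chromosome 9 overlaps the predicted genes Gm17041 and Gm17040, which had no counts, and 9.35% of its 50-base stretches also occur in another gene, chiefly these. Hdc, which makes histamine, was the gene most like Cish (r = 0.938), at 17.7 ± 1.12 CPM in PBS, 28.7 ± 1.78 with P-Mn@mHSA and 17.2 ± 0.407 with P-Mn/TI@mHSA.

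Socs1, an interferon-induced inhibitor of Janus kinases, and Socs2, which restrains growth hormone receptor signalling, were not called in any of the 3 comparisons. Socs1 was counted at 3.37, 2.73 and 2.36 CPM in PBS, at 4.33, 2.37 and 3.76 CPM with P-Mn@mHSA and at 2.64, 3.52 and 2.61 CPM with P-Mn/TI@mHSA, and all groups overlapped. Its log2 changes were 0.31 ± 0.27, 0.05 ± 0.27 and -0.25 ± 0.26 (edgeR adjusted p = 0.354, 0.882 and 0.637), so at 34 to 64 counts per library a change of the size seen in Stat6 was not detectable. Socs2 had 12, 11 and 13 counts in PBS, 12, 4 and 3 counts with P-Mn@mHSA and 4, 4 and 8 counts with P-Mn/TI@mHSA. It passed the filter on low counts through its PBS libraries. The Socs2 log2 change was -0.89 ± 0.54 with P-Mn@mHSA (edgeR adjusted p = 0.181) and -1.18 ± 0.55 with P-Mn/TI@mHSA (edgeR adjusted p = 0.0751). Without P-Mn@mHSA replicate 1, whose count was like those in PBS, the first of these was -1.69 and passed (edgeR adjusted p = 0.0425). That was the only pass among the 15 alternatives that tested Socs2 there. The genes most like Socs1 and Socs2, Fip1l1 (r = 0.952) and Arpc1b (0.959), themselves passed the threshold in no comparison.

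**Figure D4:**
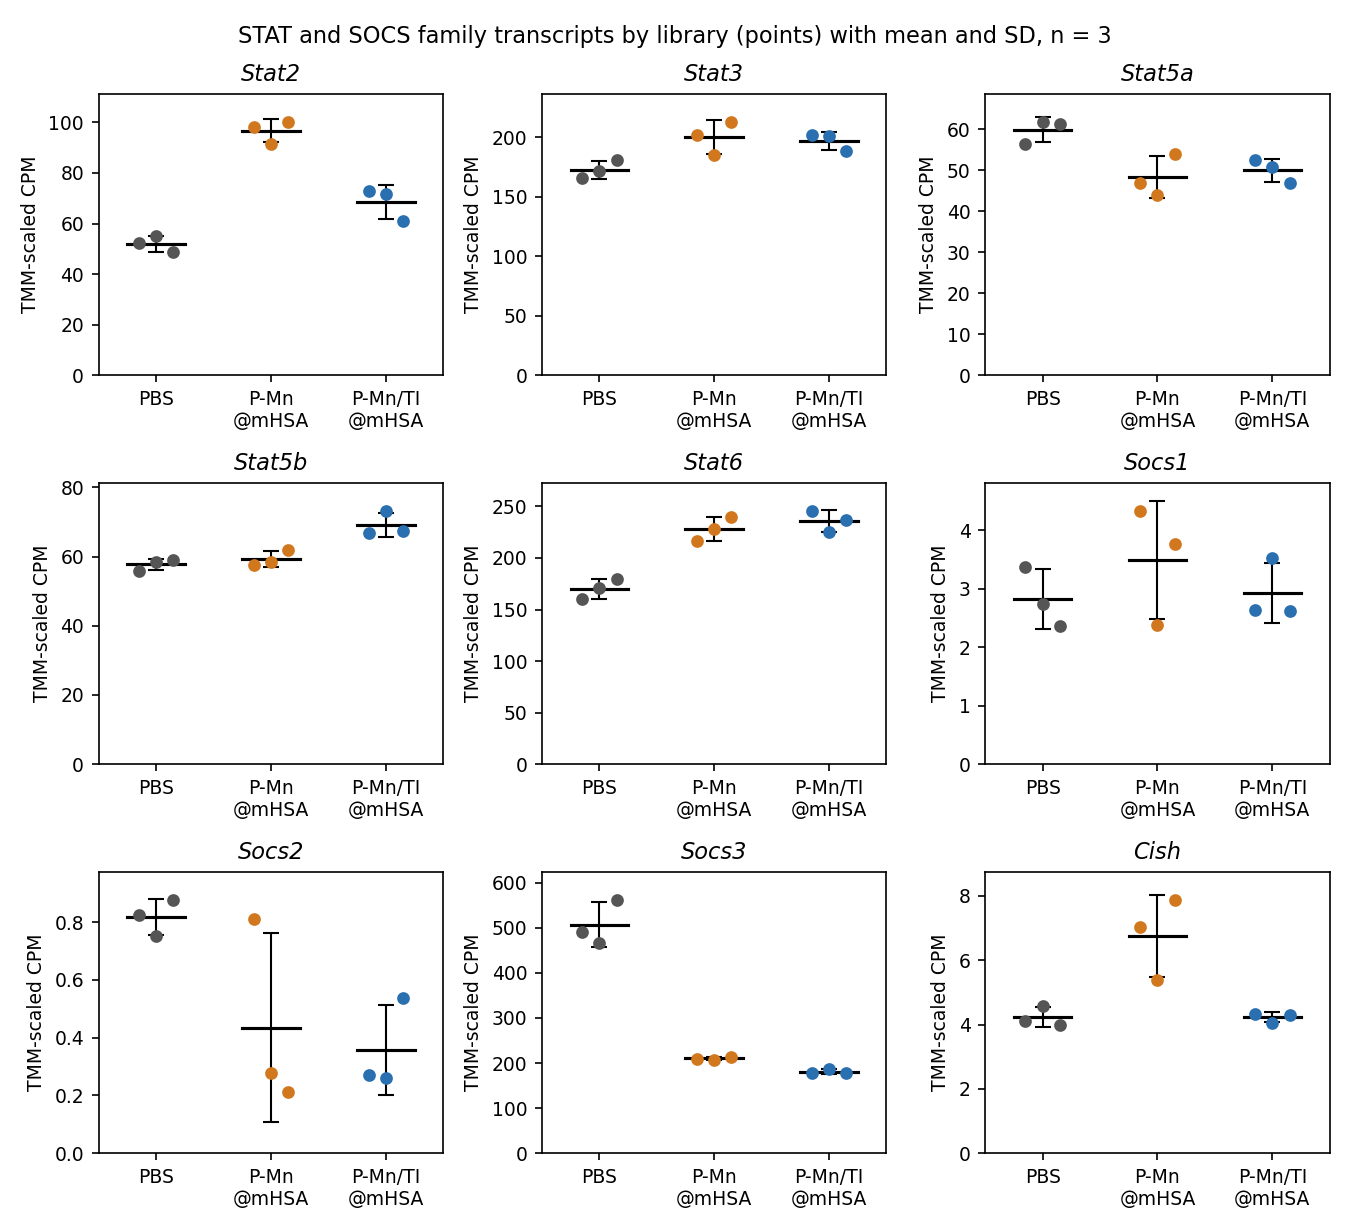
TMM-scaled CPM of each of the 9 genes in each library (points) with the group mean and SD (n = 3), every axis starting at 0. Socs3 drops from 466.7 to 562.3 CPM in PBS to under 214 CPM in each particle library, Stat2 and Cish peak with P-Mn@mHSA at means of 96.7 and 6.77 CPM, Stat5b is highest with P-Mn/TI@mHSA at 69.2 CPM, and the 3 groups of Socs1 overlap.

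The ligands that drive these STATs moved in both directions. Of 15 cytokine genes, 10 were tested: 4 rose and 3 fell with P-Mn@mHSA, 3 rose and 6 fell with P-Mn/TI@mHSA, and 3 were lower and none higher between the particle groups. The median log2 changes were 0.11, -0.41 and -0.44. Among all genes tested, 24.3% rose and 24.1% fell with P-Mn@mHSA, and 27.1% rose and 27.3% fell with P-Mn/TI@mHSA. Between the particle groups 2.34% of them were lower and 1.48% higher. Lif, of the IL-6 family, rose 4.46-fold, from 90.4 ± 8.72 CPM in PBS to 403.3 ± 28.3 CPM with P-Mn@mHSA (edgeR adjusted p = 1.99e-14), and 3.30-fold with P-Mn/TI@mHSA, to 298.2 ± 36.2 CPM (edgeR adjusted p = 7.43e-13). It was lower with the inhibitor-loaded particle than without (log2 change -0.44 ± 0.08, edgeR adjusted p = 0.00395). Its own receptor gene, Lifr, had at most 4 counts in a library. Il11, of the same family, fell from 52 to 65 counts per library in PBS to at most 8 and 5 counts (log2 change -3.76 ± 0.47 and -4.23 ± 0.49). Il11 passed the filter on low counts through its PBS libraries alone, where it is high, and without it 2 and 5 ligand genes fell.

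Il27, the gene of an IL-27 subunit, rose from 5.52 ± 0.780 CPM to 11.9 ± 0.335 and 8.47 ± 1.70 CPM (log2 change 1.10 ± 0.17 and 0.62 ± 0.17), while Ebi3, which encodes its partner subunit, fell with P-Mn/TI@mHSA (-0.33 ± 0.08). Osm rose with P-Mn@mHSA (0.56 ± 0.11). Il10, the STAT3-activating anti-inflammatory cytokine, rose from 0.818 ± 0.242 CPM to 2.24 ± 0.243 CPM with P-Mn@mHSA and 3.50 ± 0.896 CPM with P-Mn/TI@mHSA, at 8 to 69 counts per library (1.45 ± 0.34 and 2.09 ± 0.32). Il6 was at 10.4 ± 1.45, 11.5 ± 2.44 and 6.16 ± 1.60 CPM in the 3 groups and was lower with the inhibitor-loaded particle than with P-Mn@mHSA (-0.90 ± 0.19, edgeR adjusted p = 0.011). Csf3 fell from 699 ± 74.8 CPM to 133.5 ± 8.24 and 97.6 ± 7.72 CPM (-2.39 ± 0.08 and -2.84 ± 0.08) and was lower between the particle groups as well (-0.45 ± 0.08). Il15, which signals through STAT5, fell with both particles (-0.93 ± 0.23 and -0.89 ± 0.23). The 3 calls between the particle groups were absent from each of the limma fits.

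Of 24 receptor genes 20 were tested, of which 3 rose and 9 fell with P-Mn@mHSA, 2 rose and 9 fell with P-Mn/TI@mHSA and none changed between the particle groups. The medians were -0.05, -0.17 and -0.04. Shares over all genes tested were 24.3% up and 24.1% down with P-Mn@mHSA, and 27.1% up and 27.3% down with P-Mn/TI@mHSA. Il10ra, the ligand-binding chain for IL-10, fell from 92.9 ± 2.65 CPM to 50.7 ± 2.60 and 45.8 ± 1.93 CPM (log2 change -0.87 ± 0.07 and -1.02 ± 0.07). Il15ra fell from 12.5 ± 2.13 CPM to 6.39 ± 0.988 and 4.24 ± 0.368 CPM (-0.97 ± 0.17 and -1.55 ± 0.17). Il6ra, the ligand-binding chain for IL-6, rose from 40.4 ± 4.17 CPM to 54.6 ± 9.34 and 63.4 ± 4.08 CPM (0.43 ± 0.11 and 0.65 ± 0.10). Csf2rb, the signalling chain for GM-CSF, rose with P-Mn@mHSA (0.46 ± 0.12). Il7r had 0 to 3 counts in PBS, 10 to 20 with P-Mn@mHSA and 6 to 11 with P-Mn/TI@mHSA, and passed the test in both comparisons (edgeR adjusted p = 0.0015 and 0.0259). It entered the test through 2 P-Mn@mHSA libraries and 1 P-Mn/TI@mHSA library, since none of the PBS libraries reached the low-count limit. The growth hormone receptor gene Ghr, among the falls, had 25 to 44 counts in PBS, 3 to 8 with P-Mn@mHSA and 9 to 13 with P-Mn/TI@mHSA, and no P-Mn@mHSA library reached that limit. Without such genes the receptors numbered 2 rises and 8 falls with P-Mn@mHSA and 1 rise and 8 falls with P-Mn/TI@mHSA. Over all 20, the count of rises was 5 with P-Mn@mHSA without PBS replicate 2, and with P-Mn/TI@mHSA it was 1 without PBS replicate 1 and 4 without PBS replicate 3 or P-Mn@mHSA replicate 2.

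The 4 Janus kinase genes did not rise in any comparison. Jak2, the kinase of the GM-CSF and growth hormone receptors, fell from 40.3 ± 3.60 CPM to 22.5 ± 1.86 CPM with P-Mn@mHSA and 20.0 ± 1.52 CPM with P-Mn/TI@mHSA (log2 change -0.85 ± 0.10 and -1.01 ± 0.10, edgeR adjusted p = 4.99e-07 and 3.78e-08). Jak1, used by interferon and IL-6 family receptors, fell less, from 149.5 ± 6.57 CPM to 128.6 ± 0.403 and 114.2 ± 8.55 CPM (-0.22 ± 0.07 and -0.39 ± 0.07, edgeR adjusted p = 0.00923 and 3.86e-05). Jak3 and Tyk2 passed in no comparison, with changes of 0.01 ± 0.08 and -0.07 ± 0.07 for P-Mn@mHSA against PBS. Of all genes tested, 24.1% fell with P-Mn@mHSA and 27.3% with P-Mn/TI@mHSA.

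The other brakes on the pathway moved in both directions. Of 14 such genes, 4 rose and 5 fell with P-Mn@mHSA, 5 rose and 4 fell with P-Mn/TI@mHSA and none changed between the particle groups, with medians of 0.04, 0.05 and 0.07. Sh2b3, an adaptor that restrains JAK2, rose from 147.3 ± 10.96 CPM to 202.1 ± 13.0 and 220.3 ± 6.43 CPM (log2 change 0.46 ± 0.07 and 0.58 ± 0.07). The phosphatase genes Ptpn6 (0.27 ± 0.06 and 0.36 ± 0.06) and Ptpn1 (0.25 ± 0.07 and 0.39 ± 0.07) rose too. Socs4 fell from 33.3 ± 2.69 CPM to 17.3 ± 1.40 and 16.9 ± 1.55 CPM (-0.94 ± 0.11 and -0.98 ± 0.11). Ptprc, the gene of the CD45 phosphatase and also among the macrophage markers, fell by 0.60 ± 0.08 and 0.83 ± 0.08 on the log2 scale, and Pias2, a SUMO ligase, by 0.35 ± 0.08 and 0.40 ± 0.08. Without TMM, 2 of the 14 rose with P-Mn@mHSA. With TMM, 24.3% of all genes tested rose and 24.1% fell with P-Mn@mHSA, and 27.1% and 27.3% with P-Mn/TI@mHSA.

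Of the 6 genes of the ligase that the SOCS box recruits, 2 rose and 1 fell with P-Mn@mHSA and 1 rose and 2 fell with P-Mn/TI@mHSA. None changed between the particle groups. Cul5, its scaffold, fell from 73.9 ± 6.79 CPM to 46.8 ± 3.83 and 38.5 ± 5.25 CPM (log2 change -0.66 ± 0.10 and -0.94 ± 0.10). Arih2, a partner ligase, rose in both comparisons (0.31 ± 0.08 and 0.29 ± 0.08). Of the elongin genes, Elob rose with P-Mn@mHSA (0.23 ± 0.09, edgeR adjusted p = 0.0354) and Eloc fell with P-Mn/TI@mHSA (-0.49 ± 0.15). The counts moved by 1 when single libraries were left out: rises with P-Mn@mHSA were 1 without PBS replicate 2, P-Mn@mHSA replicate 1 or 2 or P-Mn/TI@mHSA replicate 2, falls were 2 when P-Mn@mHSA replicate 2 was left out, and falls with P-Mn/TI@mHSA were 1 when its replicate 1 was left out. In the comparison of the particles, 2 passed as lower when P-Mn@mHSA replicate 3 was left out and 1 when P-Mn/TI@mHSA replicate 2 was. In those settings, 794 of 12727 and 329 of 12729 genes tested changed between the particle groups, in that order. With all libraries, 24.3% of all genes tested rose and 24.1% fell with P-Mn@mHSA, and 27.1% and 27.3% with P-Mn/TI@mHSA.

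Downstream, 8 genes known as STAT3 targets and 7 known as STAT5 targets were examined. The SOCS-family members are STAT targets too but are not in these lists. So the fall of Socs3 and the rise of Cish with P-Mn@mHSA do not enter the counts and medians. Of the STAT3 targets, 4 rose and 1 fell with P-Mn@mHSA, and 5 rose and 2 fell with P-Mn/TI@mHSA. Over all genes tested, the shares were 24.3% up and 24.1% down, and 27.1% up and 27.3% down. No STAT3 target changed between the particle groups, and the medians were 0.24, 0.31 and 0.06. Junb, an AP-1 subunit, rose from 384.1 ± 31.6 CPM to 783.5 ± 22.6 and 754.8 ± 50.4 CPM (log2 change 1.03 ± 0.07 and 0.97 ± 0.07). The survival gene Mcl1 rose by 0.62 ± 0.06 and 0.64 ± 0.06, and Sbno2, an IL-10-induced regulator, by 0.37 ± 0.06 and 0.48 ± 0.06. Zfp36, whose protein degrades cytokine messages, fell by 0.39 ± 0.07 and 0.35 ± 0.07 on the log2 scale, and Bcl3 fell by 0.22 ± 0.08 with P-Mn/TI@mHSA. The count of falls with P-Mn/TI@mHSA was 1 without PBS replicate 1 or 3 or P-Mn/TI@mHSA replicate 1 or 3, and that with P-Mn@mHSA was 2 without PBS replicate 2 or P-Mn@mHSA replicate 3.

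Of the STAT5 targets, 5 rose and none fell with P-Mn@mHSA, 3 rose and none fell with P-Mn/TI@mHSA, and 1 was lower between the particle groups. The rises with P-Mn@mHSA included Osm, which is also counted among the ligands. The medians were 0.56, 0.24 and -0.03. Of all genes tested, 24.3% rose and 24.1% fell with P-Mn@mHSA, 27.1% and 27.3% with P-Mn/TI@mHSA, and 2.34% were lower between the particle groups. Id1, a differentiation inhibitor, rose from 12.7 ± 2.18 CPM to 44.9 ± 0.482 and 40.7 ± 3.17 CPM (log2 change 1.82 ± 0.11 and 1.67 ± 0.11). The cyclin gene Ccnd1 rose by 0.87 ± 0.06 and 1.02 ± 0.06, with 21.6% of its 50-base stretches shared with another gene, and the kinase gene Pim1, which is in both target lists, by 0.31 ± 0.08 and 0.39 ± 0.08. Ccnd2 went from 7.50 ± 0.924 CPM in PBS to 14.6 ± 2.96 CPM with P-Mn@mHSA (0.96 ± 0.17, edgeR adjusted p = 6.62e-05) and stood at 8.76 ± 1.31 CPM with P-Mn/TI@mHSA, lower than with P-Mn@mHSA (-0.74 ± 0.16, edgeR adjusted p = 0.0135). That last call ended when P-Mn@mHSA replicate 2 or P-Mn/TI@mHSA replicate 3 was left out.

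**Figure D5:**
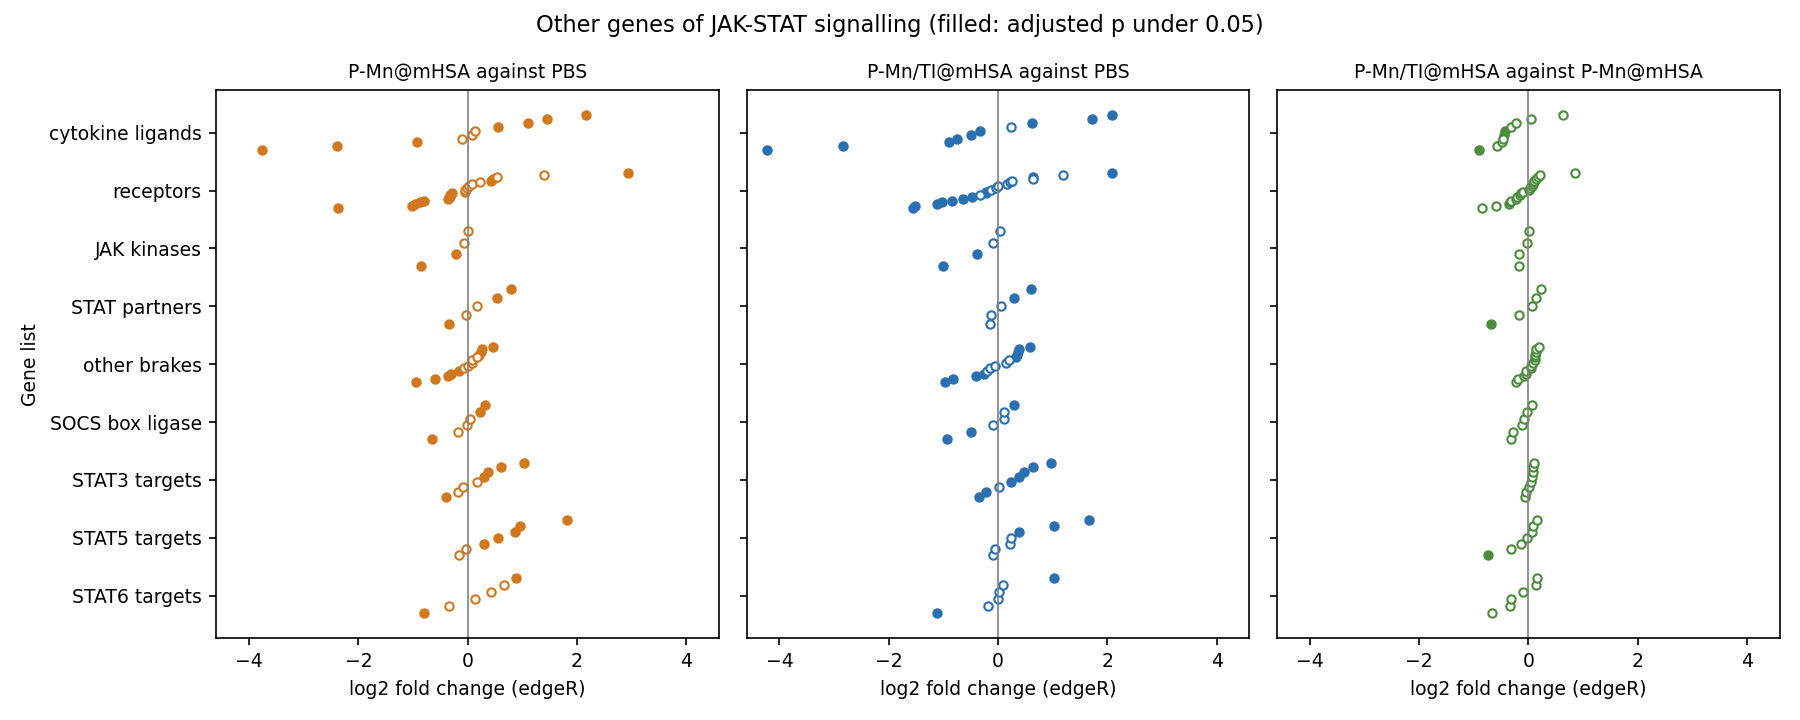
Log2 fold change (edgeR) of the other tested JAK-STAT genes in the 3 comparisons, 1 row per list and 1 point per gene of a list, filled where the adjusted p was under 0.05. Il4ra, Osm and Pim1 are each on more than 1 list and have a point in each. Ligands run from Il11 at -3.76, which passed the filter on low counts through its PBS libraries alone, to Lif at 2.16 with P-Mn@mHSA. No STAT5 target is filled on the left in the comparisons with PBS, and the panel between the particle groups holds 5 filled points, all on the left.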

How the data were processed

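RNA sequencing libraries of RAW264.7 cells (3 per group) were read from the deposited gene table, whose values the authors give as raw read counts and FPKM per gene and library, with a gene length. The deposited FPKM equalled count over length and a constant per library within a relative deviation of 1.1e-13. The build was GRCm38 and reads passed through FastQC and cutadapt 1.9, per the submitters' processing notes. The aligner, the counter and its strand setting are not given in the sources used. Of 21202 protein-coding symbols compared, 16% had coordinates in the table that overlapped their RefSeq interval on GRCm38, and none of the 9 genes did. So chromosomes alone are given for genes, gaps and overlaps between genes are in the table's own coordinates, and promoter windows are RefSeq's, GRCm38.p6. Total counts were 13994570 to 15543439.

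Genes were filtered with filterByExpr, scaled by TMM and tested two-sided with edgeR 4.0.16 in R 4.3.3, after a check on simulated data. Alternatives used DESeq2 1.42.0, limma 3.58.1 with a filter of 0.5 mean FPKM, other scalings and filters, a replicate block and left-out libraries. Shared 50-base stretches were counted in GENCODE M21 transcripts. They were also 15.9% of those of Ebi3 and 13.6% of those of Elob, so some reads of these genes may be misassigned. Named genes are all 9 members, up to 3 called genes per list and direction by lowest p, and the 2 genes most like each member. Some other genes of the lists are named beside these. Members and lists were chosen with earlier results of these data known. A gene on the list of markers of other cell types is not reported here.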

Additional observations from a re-analysis of the deposited data

How the results depend on the processing

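Each comparison was recomputed under 18 alternatives, of which library totals without TMM and limma on TPM were chosen after seeing the data. Between the particle groups, 476 genes changed by edgeR, 791 with all genes of at least 1 count, 312 with a replicate block, 76 and 48 with limma on FPKM plus 1 and plus 0.1, 8 with limma on TPM, and 129 to 794 with a library left out. The members called lower there numbered 2, but 3 with all genes of at least 1 count, 1 with a replicate block, in the fit of only the 6 libraries and with limma on FPKM plus 1, 0 with limma on FPKM plus 0.1 and on TPM, and 1 to 2 with a library left out. In P-Mn/TI@mHSA against PBS, 2 members rose and 1 fell with limma on TPM, and falls numbered 1 to 2 with a library left out.

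Changes of sign were all of uncalled genes. Stat5b with P-Mn@mHSA became -0.042 on library totals and -0.0509 on TPM. Against PBS with P-Mn/TI@mHSA, Socs1 became -0.0251 on library totals and ran from -0.11 to 0.201 with a library left out; Cish became 0.0118 with all genes of at least 1 count, 0.00505 in the 6 libraries, 0.00192 with DESeq2, 0.00112 and 0.00323 with limma on FPKM plus 1 and plus 0.1, and ran from -0.0431 to 0.0555 with a library left out. Between the particle groups, with a library left out, Socs2 ran from -0.704 to 0.515, Stat5a from -0.0114 to 0.137 and Stat3 from -0.0748 to 0.0246, and Stat3 was 0.0173 on TPM. The cause of these shifts was not tested.

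The replicate block ended the call of Cish between the particle groups (adjusted p = 0.0712) and ended no other call among the 9 genes. Deviations of same-numbered libraries from their group means correlated at -0.0661 to 0.0611, and those of other-numbered libraries at -0.0981 to 0.104. No pairing by number was visible, but these values cannot exclude that same-numbered libraries were handled together. Socs2 was below the filters of the limma fits and of the 6-library fit between the particle groups, and DESeq2 gave no adjusted p for Socs1 and Socs2 between the particle groups. At 3 to 13 counts per library for Socs2 and 34 to 64 for Socs1, depth limits what could be detected.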
